A study of Rattus norvegicus with 115 samples.

Results

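The interleukin genes described here were all genes whose annotated symbol starts with Il followed by a digit, except Il1b, Il6 and Il1r2, among probe sets that carry a single gene symbol. The rule found 48 of 14217 genes measured on a rat expression array, read by 61 probe sets, and each of the 10 genes with more than 1 probe set was represented by its probe set of highest mean log2 value. By role, 21 encode ligands, 22 encode receptors or receptor subunits and 5 encode secreted antagonists, binding proteins or decoy receptors, called inhibitors below. By family, 11 belong to the interleukin 1 family, 12 to the common gamma chain family, 8 to the gp130 and Il12 family, 6 to the Il10 family, 5 to the Il17 family and 4 to the beta common chain family, and Il16 and Il34 stand apart. The common gamma chain family is counted here with Il13 and its decoy receptor Il13ra2, which do not use that chain.

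Interleukins are small secreted proteins through which leukocytes and tissue cells signal to one another, and most act only on cells that carry the matching receptor chains. Chains are shared: the common gamma chain Il2rg serves the receptors for Il2, Il4, Il7 and Il15, Il6st (gp130) serves those for Il6 and Il11, and Il1rap completes the receptors for Il1a and Il33. Receptors of the interleukin 1 and Il17 families act through the adaptors Myd88 and Traf3ip2 on NF-kB, and most others through Jak kinases and Stat factors. In brain, Il34 is made chiefly by neurons and sustains microglia, whereas Il33 is a nuclear alarmin of glia that is released when cells are damaged.

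The study implanted cells of 9L, a rat line that the labels call glioblastoma, into the right caudate nucleus of Fisher rats (100000 cells) and irradiated them 10 days later. Microbeam radiation therapy (MRT) splits a synchrotron beam into narrow planes, which here received 400 Gy, against 18 Gy in the valleys that separate them, and broad beam (BB) gave 17.4 Gy evenly. Tumour and the opposite, contralateral hemisphere of the same rats were taken 6 h, 48 h, 8 d or 15 d after treatment. Untreated rats carried the same tumours without irradiation, and the opposite hemisphere of MRT and BB rats was irradiated as well. Untreated tumours numbered 5 at 6 h, 4 at 48 h and 4 at 8 d. There were 9, 8, 7 and 4 MRT tumours and BB tumours numbered 6, 4, 4 and 4 at 6 h, 48 h, 8 d and 15 d. From the opposite hemisphere there were 5, 4 and 4 untreated samples in the same order, 9, 7, 6 and 4 of MRT rats and 6, 3, 4 and 4 of BB rats. The 15 d time has no untreated group here. The model is 1 transplanted cell line, so what is measured in a tumour sample is 9L cells together with the host's brain and blood cells. In such bulk samples fewer cells of a type and less RNA per cell cannot be told apart.

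All 115 arrays passed into the comparisons. The value of a gene is the log2 of its deposited intensity, called its level, and levels of different genes are not compared because probe sets differ in brightness. Of the 48 genes, 15 had a mean level below 5.21, the lower quartile of all values, and 5 of these (Il17f, Il22ra2, Il2ra, Il36b and Il5ra) stayed below it on every array. The others of the 15 were Il10, Il13, Il13ra2, Il2, Il20rb, Il24, Il27ra, Il3, Il5 and Il7, also where a result below does not call them dim. The 9L marker Cdkn2a ran from 11.29 to 11.72 in untreated tumours at 8 d. In MRT tumours of that time it ran from 5.13 to 9.43, with rats 37 and 38 lowest at 5.67 and 5.13. In contralateral samples it was highest in untreated 48 h rat 18, untreated 8 d rats 29 and 30, BB 8 d rat 57, BB 15 d rats 59, 60 and 61 and MRT 15 d rat 43, at 5.83 to 8.07. The untreated contralateral sample of rat 18 at 48 h stood apart, with a median correlation of 0.870 with its group. Its part is given below for the counts at 48 h and, between the tissues, for the ligands lower in tumour. The 35 BB arrays were described with labels that differ from those of the rest, and their processing notes name RMA where those of the rest name RMA and MAS5, so what BB did and what that separate set of arrays brings cannot be told apart. Comparisons of MRT and of BB with untreated samples of one time share those untreated samples.

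The 3 receptor genes Il1r1, Il1rl2 and Il1rl1 of the interleukin 1 family lie next to one another on rat chromosome 9, with 0 protein-coding genes between them in the RefSeq annotation of build GRCr8, and they differed in level between tumour and brain as described below. Il1r1 encodes the signalling receptor for Il1a, Il1rl2 that for the Il36 cytokines and Il1rl1 (ST2) that for Il33. Their RefSeq promoters on the plus strand, from 250 bases before the start up to it, are shown because these neighbours were not all higher in tumour. They lie at chr9:50034133-50034382 for Il1r1, chr9:50087302-50087551 for Il1rl2 and chr9:50203388-50203637 for Il1rl1. The promoter of Il24, a ligand of the Il10 family that rose at 8 d after MRT, lies at chr13:44910761-44911010 on the minus strand and holds the letters TTCAGAGAA from 152 to 144 bases before the start, printed in capitals, a match to the Stat-binding GAS motif TTCNNNGAA (N is any base). The sequences run 5′ to 3′.
Il1r1: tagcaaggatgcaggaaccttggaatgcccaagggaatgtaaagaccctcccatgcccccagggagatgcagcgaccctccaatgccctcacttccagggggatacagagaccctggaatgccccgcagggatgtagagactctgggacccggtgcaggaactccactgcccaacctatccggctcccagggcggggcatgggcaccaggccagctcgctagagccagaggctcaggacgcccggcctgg
Il1rl2: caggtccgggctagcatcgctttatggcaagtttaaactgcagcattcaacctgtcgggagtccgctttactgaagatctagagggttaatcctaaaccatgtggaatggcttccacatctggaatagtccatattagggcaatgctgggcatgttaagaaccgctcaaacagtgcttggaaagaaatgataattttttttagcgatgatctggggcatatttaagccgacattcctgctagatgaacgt
Il1rl1: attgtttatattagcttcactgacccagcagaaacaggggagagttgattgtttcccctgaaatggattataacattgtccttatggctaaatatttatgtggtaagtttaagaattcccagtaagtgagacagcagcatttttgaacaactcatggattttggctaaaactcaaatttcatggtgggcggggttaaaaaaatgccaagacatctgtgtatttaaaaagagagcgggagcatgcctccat
Il24: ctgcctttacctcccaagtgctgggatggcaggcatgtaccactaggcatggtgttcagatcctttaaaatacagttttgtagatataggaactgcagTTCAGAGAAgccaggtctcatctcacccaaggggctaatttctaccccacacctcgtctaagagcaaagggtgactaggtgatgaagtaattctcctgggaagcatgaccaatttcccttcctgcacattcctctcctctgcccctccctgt
Promoters were matched for 36 of the 48 genes, and 3 motifs were searched on both strands in the 250 bases before the start. GAS occurred in 2 of the 36 (5.56 percent), Il24 and Il36b, against 7.67 percent of 33469 RefSeq promoters. The interferon-response motif, GAAA and GAAA with 2 bases between, occurred in 3 (8.33 percent), Il36b, Il4 and Il6st, against 3.41 percent, and the NF-kB motif, GGGA and TTCC with 2 bases between, in 0 against 1.08 percent. These letter matches describe the windows and are not evidence of binding.

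**Figure D1:**
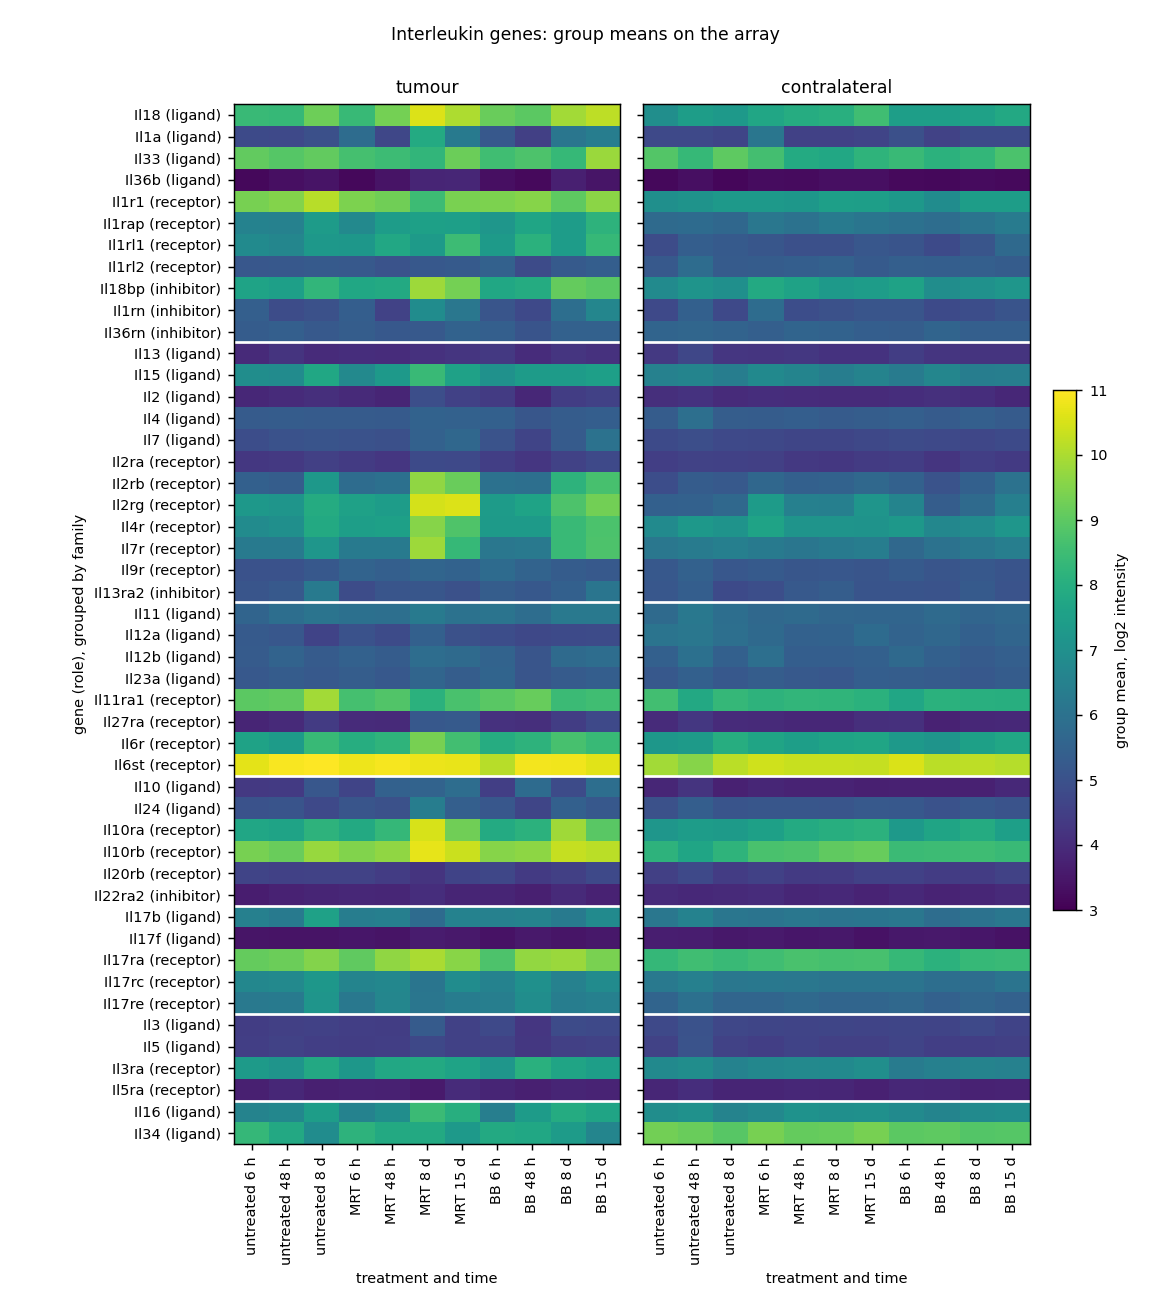
Heat map of the mean level (log2 intensity, colour scale from 3 to 11) of the 48 interleukin genes in the 11 tumour groups and the 11 contralateral groups, with genes ordered by family and role. Il2rb, Il4r, Il7r and Il10ra each have their highest group mean in MRT tumours at 8 d, Il2rg in MRT tumours at 15 d and 8 d, and the highest contralateral mean of Il1a is that of the MRT group at 6 h.

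Between untreated tumours and the opposite hemisphere, 19 interleukin genes were higher in tumour and 13 lower. Of the 22 receptor genes 13 were higher and 3 lower, whereas of the 21 ligand genes 4 were higher and 8 lower, and of the 5 inhibitors 2 were higher and 2 lower (limma with Benjamini-Hochberg adjustment over all genes, 13 arrays of each tissue). In all, 32 of 48 genes were called, where 81.1 percent of all genes tested were, 40.5 percent higher and 40.6 percent lower, and receptors were not tested against ligands. Their median difference was 0.14 log2 against -0.03 over all genes. Il1r1 read 8.68 to 10.35 (median 9.77) in untreated tumours and 6.55 to 7.97 (median 7.07) in untreated contralateral samples, so the groups did not overlap. It was higher by 2.53 ± 0.17 log2 (adjusted p = 8.7e-25). Il1rl1, next to it, read 6.13 to 7.64 (median 6.91) and 4.46 to 6.11 (median 5.17), a difference of 1.74 ± 0.24 (adjusted p = 2.8e-10). Il1rl2, which lies between them, was lower in tumour, by -0.26 ± 0.08 log2 (adjusted p = 0.0017), and its levels overlapped.

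The shared chain Il2rg read 6.19 to 8.90 (median 7.09) in untreated tumours against 5.04 to 6.11 (median 5.46), higher by 1.90 ± 0.24 log2. Other receptor genes higher in tumour were Il10rb (1.42 ± 0.11), the second chain of the Il10 receptor, Il1rap (1.08 ± 0.12), the Il11 receptor gene Il11ra1 (1.06 ± 0.14) and Il6st (1.01 ± 0.13). Il10rb and Il1rap did not overlap between tissues. Among ligands, Il18, a product of macrophages and microglia that the inflammasome activates, was higher by 1.45 ± 0.16 log2. Its binding protein Il18bp was higher by 0.82 ± 0.15. The neuronal ligand Il34 read 6.52 to 8.63 (median 7.93) in tumours against 8.87 to 9.63 (median 9.16) and was lower by 1.44 ± 0.15 log2, without overlap, and Il12a, a subunit of Il12, was lower by -1.03 ± 0.11. Neuron markers were lower in 10 of 10 cases and macrophage and monocyte markers higher in 6 of 8; their part in these differences was not tested.

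Of the 8 lower ligands, Il4, Il5 and Il3 (-0.23, -0.22 and -0.31 log2) lost the call without the contralateral sample of rat 18. The other differences between the tissues include this sample as well, and its part in their size is not given. The split also depended on scaling. The arrays' medians were higher in tumour by 0.26 log2, and with equal array medians 16 genes were higher and 20 lower, against 20 higher and 6 lower with quantile normalization. Downstream, 23 of 30 measured signalling genes were higher in tumour and 1 was lower. The inflammasome caspases Casp4 (3.02 ± 0.14) and Casp1 (2.95 ± 0.17), the Casp1 adaptor Pycard (2.29 ± 0.16), the inhibitory kinase Irak3 (2.65 ± 0.18) and Nfkb2 (2.42 ± 0.18) led the rise. The feedback gene Socs2 was the one lower (-0.91 ± 0.13).

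As untreated tumours grew from 6 h to 8 d, 9 interleukin genes rose and 2 fell, that is 11 of 48 where 29.2 percent of all genes were called (n = 4 and 5, limma). Of all genes, 16 percent were higher and 13.2 percent lower. Il34 read 7.93, 8.12, 8.41, 8.59 and 8.63 at 6 h and 6.52, 6.77, 7.42 and 6.88 at 8 d, without overlap, and fell by 1.44 ± 0.35 log2 (adjusted p = 0.0024). Il17b, a ligand of the Il17 family, read 6.79, 6.58, 6.49, 6.34 and 6.15 at 6 h and 7.93, 7.71, 7.30 and 7.33 at 8 d. It rose by 1.10 ± 0.24 log2 (limma, adjusted p = 0.001). Il17re, a receptor subunit of the same family, rose as well (0.94 ± 0.24).

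Il2rb, the signalling chain for Il2 and Il15 on T and NK cells, rose by 1.80 ± 0.49. Its levels at 8 d were 5.52, 8.58, 8.80 and 6.13 for rats 27, 28, 29 and 30, so that rats 28 and 29 stood well above the others, and the call was lost without either of them. The Il13 decoy receptor Il13ra2 (1.15 ± 0.31), Il4r (0.98 ± 0.29), Il11ra1 (0.89 ± 0.24), Il15 (0.83 ± 0.23), Il1rap (0.82 ± 0.23) and Il6r (0.76 ± 0.22) completed the rise, and Il12a fell by 0.65 ± 0.19. Neuron markers ranged from 10.52 to 11.55 at 6 h and from 8.12 to 9.66 at 8 d. With their mean as a covariate 0 of the 48 genes were called, against 29 with array quality weights and 21 when the fit held only these groups. Of the signalling list 10 of 30 genes rose and 0 fell, led by Traf6 (0.70 ± 0.15).

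Tumours 6 h after MRT gave no called interleukin gene (0 of 48, where 1.42 percent of all genes were called, n = 9 and 5; 4 genes had an unadjusted p under 0.05, and 11 were called with array quality weights). The alarmin Il1a read 5.43 to 6.58 after MRT, against 4.64, 4.46, 4.46, 4.46 and 6.00 untreated. Its difference was 1.02 ± 0.40 log2 (limma, adjusted p = 0.29). The highest untreated value, 6.00, came from rat 5, whose macrophage and monocyte markers were at 8.68, highest of the group. Il1rn read 4.75, 4.32, 4.75, 4.75 and 8.54 in untreated tumours, with rat 5 last, and 4.58 to 5.95 (median 5.49) after MRT. Il1rn, the antagonist that competes with Il1a for its receptor, differed by -0.02 ± 0.39. Of the signalling list Irak2 (0.93 ± 0.18), Bcl3 (1.13 ± 0.27) and Nfkbia (0.92 ± 0.22), which act on or feed back on NF-kB, rose.

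At 48 h after MRT the co-receptor Il1rap and the Il6 receptor Il6r rose, that is 2 of 48 where 2.35 percent of all genes were called, 1.86 percent higher (n = 8 and 4), and after BB Il1rap, Il10 and Il3ra rose, 3 of 48 where 2.6 percent were, 1.37 percent higher (n = 4 and 4; the array medians were higher after BB by 0.13 log2). Il1rap read 6.71, 6.58, 6.32 and 6.46 in untreated tumours, 6.92 to 7.97 (median 7.56) after MRT and 7.64, 7.39, 8.04 and 7.78 after BB. Both irradiated groups lay wholly above the untreated one. The rise was 0.90 ± 0.21 log2 after MRT (adjusted p = 0.011) and 1.20 ± 0.25 after BB (adjusted p = 0.0059). Its second probe set differed by -0.0046 and 0.0107.

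Il6r read 7.61, 7.30, 7.29 and 7.41 untreated, 8.00 to 8.44 (median 8.20) after MRT and 8.10, 8.17, 8.16 and 8.21 after BB, again without overlap with untreated tumours. It rose by 0.80 ± 0.20 after MRT (adjusted p = 0.02), and the BB difference was 0.76 ± 0.24 (adjusted p = 0.064). Il10, the chief anti-inflammatory ligand of its family, read 4.70, 4.46, 4.00 and 4.32 untreated, 4.75 to 6.02 (median 5.48) after MRT and 6.44, 4.58, 6.61 and 5.52 after BB. Here BB rat 53, at 4.58, lay among untreated tumours; in this array the 3′ probe set of Gapdh exceeded the 5′ one by 2.35 log2, a sign of degraded RNA, against at most 0.84 in the other arrays. Without this array Il1rap, Il10 and Il3ra kept the call. The difference was 1.11 ± 0.34 after MRT (adjusted p = 0.067) and the rise 1.42 ± 0.39 after BB (adjusted p = 0.037). Il3ra, the Il3 receptor chain, rose by 0.94 ± 0.23 after BB and differed by 0.68 ± 0.20 after MRT (adjusted p = 0.055). Macrophage and monocyte markers were at 6.96 to 7.42 untreated, 8.44 to 8.75 after MRT and 8.04 to 8.73 after BB, and their part was not tested. The calls rest on few arrays: without untreated rat 16 or 17 the MRT count was 1 and 0. The BB count was 1 without untreated rat 16, 17 or 18 or BB rat 51 or 52, and with array quality weights the counts were 6 after MRT and 13 after BB. Between MRT and BB tumours at 48 h 0 genes of the 48 were called by limma, with 0 at an unadjusted p under 0.05, as of all genes 0.00 percent were.

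At 8 d after MRT the interleukin system of the tumours differed broadly from untreated tumours: 23 genes rose and 8 fell, 31 of 48 where 47.8 percent of all genes were called (21.8 percent higher and 26.1 percent lower, n = 7 and 4). Their median difference was 0.39 log2 against -0.04 over all genes. Of the 21 ligands 11 rose and 2 fell, of the 22 receptors 10 rose and 5 fell, and of the 5 inhibitors Il18bp and Il1rn rose and Il13ra2 fell. In the common gamma chain family 7 of 12 genes rose and 1 fell, the decoy receptor Il13ra2, which does not use that chain. In the Il17 family 1 of 5 rose and 3 fell.

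Among ligands Il1a moved most. It read 4.46, 5.36, 5.32 and 4.70 in untreated tumours and 6.63 to 9.46 (median 7.61) in MRT tumours, without overlap, and rose by 2.92 ± 0.45 log2 (limma, adjusted p = 7.9e-07). Its antagonist Il1rn rose in parallel, from 4.70, 5.39, 4.81 and 5.00 untreated to 5.95 to 7.47 (median 7.26) after MRT, by 1.92 ± 0.44 (adjusted p = 3.2e-04). Il18 read 8.62, 9.65, 9.71 and 8.97 against 9.98 to 11.23 (median 10.32) and rose by 1.35 ± 0.30. Il18bp, which binds Il18 outside the cell and keeps it from its receptor, read 7.59, 8.79, 8.68 and 7.95 against 9.36 to 10.39 (median 9.80) and rose by 1.57 ± 0.28. For each of these 4 genes the lowest MRT tumour stood above the highest untreated tumour. Il24 read 4.81, 4.64, 4.64 and 4.95 untreated and 5.04 to 8.16 (median 6.46) after MRT, a rise of 1.62 ± 0.32, with MRT rats 35 and 36 highest at 8.09 and 8.16. The other ligands that rose were Il16 (0.99), a chemoattractant for CD4 cells, Il34 (0.97), the Il12 subunits Il12a (0.84) and Il12b (0.56), Il2 (0.83), Il3 (0.76), Il15 (0.66), which sustains NK and memory T cells, and Il36b (0.40). Of these, Il2, Il3 and Il36b were dim, with mean levels over all arrays of 4.12, 4.67 and 3.34, and Il36b stayed below 5.21 on every array.

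Several receptor genes rose as well. Il7r, the Il7 receptor of T cells, read 6.02, 8.18, 7.91 and 6.74 in untreated tumours and 9.33 to 10.21 (median 9.92) after MRT, and rose by 2.62 ± 0.35 (adjusted p = 5.5e-08). Il2rg read 7.03, 8.90, 8.87 and 6.93 against 9.88 to 11.04 (median 10.52) and rose by 2.55 ± 0.46. Il2rb read 5.52, 8.58, 8.80 and 6.13 against 8.79 to 10.64 (median 9.59), where the lowest MRT tumour, rat 34, lay just under untreated rat 29, and rose by 2.40 ± 0.46. Il4r, a receptor chain for Il4 and Il13 on many leukocytes, read 7.22, 8.10, 8.10 and 7.97 against 8.24 to 10.54 (median 9.67) and rose by 1.69 ± 0.27. Il10ra, the ligand-binding chain for Il10 on leukocytes, read 6.88, 8.97, 9.07 and 7.73 against 10.02 to 10.95 (median 10.53) and rose by 2.35 ± 0.32. Its second, dimmer probe set correlated with the one used at only r = 0.14 over all arrays. Untreated rats 28 and 29 were above rats 27 and 30 in all of these 5 genes. Il6r (0.98), Il10rb (0.95), Il17ra (0.47) and the dim Il27ra (0.84) and Il2ra (0.29) rose as well.

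Of the 5 receptor genes that fell, those for Il11 and Il1a moved most. Il11ra1 read 9.88, 10.02, 9.67 and 9.97 untreated and 7.94 to 8.46 (median 8.02) after MRT, and fell by 1.78 ± 0.22 log2 (adjusted p = 1.8e-08). Il1r1 read 10.22, 10.15, 9.86 and 10.35 untreated and 7.38 to 9.26 (median 8.71) after MRT, and fell by 1.67 ± 0.34 (adjusted p = 6.2e-05). So Il1a and its antagonist rose while their signalling receptor fell, and the co-receptor Il1rap differed by 0.15 ± 0.22 (adjusted p = 0.6). The Il17 family receptor subunits Il17rc (-1.13 ± 0.20) and Il17re (-1.04 ± 0.22) and the dim Il20rb (-0.36 ± 0.12) were the others. Il17b read 7.93, 7.71, 7.30 and 7.33 against 5.55 to 6.04 (median 5.75) and fell by 1.78 ± 0.22. Il33 read 9.17, 9.15, 8.93 and 9.10 against 7.70 to 8.85 (median 8.14) and fell by 0.82 ± 0.26 (adjusted p = 0.0083), and its receptor Il1rl1 differed by 0.11 ± 0.50. Il13ra2 fell by 1.13 ± 0.29. All of these except Il20rb were without overlap between the groups.

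The cell makeup of these tumours differed at the same time. T and NK markers ran from 6.13 to 7.93 untreated and from 8.81 to 10.34 after MRT, with 12 of 12 higher, and macrophage and monocyte markers from 8.03 to 9.24 and from 9.89 to 11.70, with 8 of 8 higher. Neuron markers were higher in 7 of 10 cases, and markers of dividing cells lower in 5 of 5. No marker of these lists was listed at 0, and their part in the interleukin changes was not tested, except that with neuron markers as a covariate 26 genes rose and 6 fell. Il33, Il34, Il16, Il36b, Il2ra and Il20rb lost the call in that fit. Without MRT rats 37 and 38, in whose tumours Cdkn2a was lowest, 24 genes rose and 6 fell. Il15 (0.66 ± 0.22) is among the smaller rises that kept the call with any 1 untreated tumour left out. Of the signalling list 16 of 30 genes rose and 3 fell. Bcl3 (2.04 ± 0.30), Irak2 (1.33 ± 0.21), Stat4 (2.01 ± 0.31), which relays Il12, Stat2 (1.05 ± 0.18) and Socs2 (1.23 ± 0.22) rose most clearly, and Stat6, which relays Il4, fell by 1.34 ± 0.34 with Irak1 and Irak3.

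**Figure D2:**
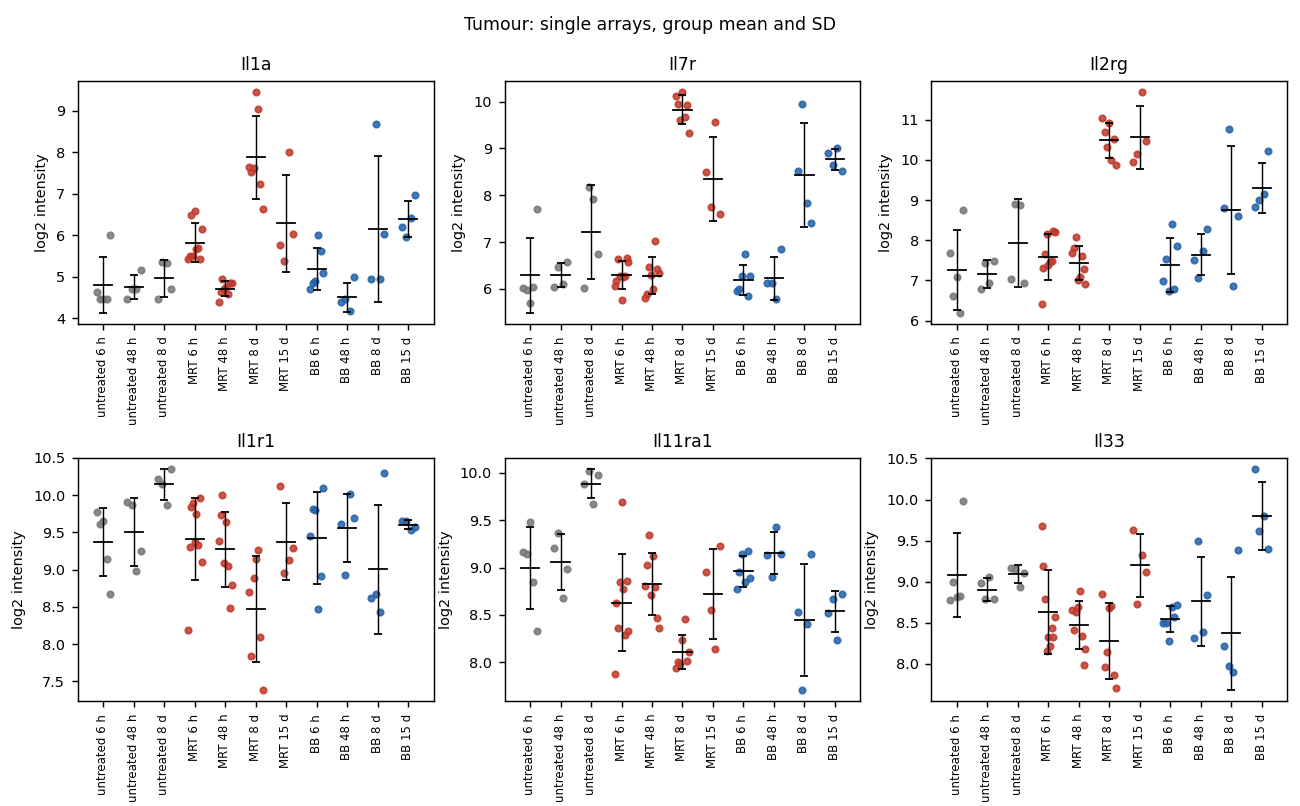
Level (log2 intensity) of 6 interleukin genes in every tumour array, by treatment and time, with the group mean as a line and 1 SD as a bar. Il1a, Il7r and Il2rg in the 7 MRT tumours at 8 d lie above all 4 untreated tumours of that time, Il1r1, Il11ra1 and Il33 lie below them, and the 4 BB tumours at 8 d spread widely.

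In BB tumours at 8 d 4 of 48 genes rose and 5 fell, where 22.9 percent of all genes were called, 8.36 percent higher and 14.5 percent lower (n = 4 and 4), and neither share of the interleukin genes was above that of all genes. Il10ra read 9.96, 11.03, 9.48 and 8.95 in BB rats 54, 55, 56 and 57 and rose by 1.69 ± 0.36 (limma, adjusted p = 8.3e-04). Il7r read 8.52, 9.95, 7.85 and 7.41 in the same order and rose by 1.22 ± 0.39 (adjusted p = 0.022). Il1a read 4.95, 8.67, 4.95 and 6.02, so that rat 55 lay within the MRT range and rats 54 and 56 within the untreated one. Its difference of 1.19 ± 0.51 was not called (adjusted p = 0.08). Il2rg, at 8.79, 10.77, 6.86 and 8.60, differed by 0.82 ± 0.51 (adjusted p = 0.24), again with rat 55 alone as high as MRT tumours.

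The genes that fell after BB were Il11ra1 at 8.53, 7.71, 8.40 and 9.15 (which fell by 1.44 ± 0.25), Il17b at 5.88, 5.81, 6.21 and 7.25 (which fell by 1.28 ± 0.25), Il1r1, which fell by 1.14 ± 0.38, Il17re and Il17rc. Il11ra1, Il17b, Il17re and Il17rc did not overlap with untreated tumours. Il18bp (0.86 ± 0.31) and Il12b (0.47 ± 0.16) were the other rises, and Il33 differed by -0.72 ± 0.29 (adjusted p = 0.066). T and NK markers ran from 6.08 to 9.84 in these 4 tumours and Cdkn2a from 8.23 to 11.46, and their part was not tested. The count was 5 without untreated rat 27, 4 without untreated rat 30 and 3 without BB rat 55, 27 with array quality weights, and 3 when the fit held only these groups.

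Set against each other at 8 d, MRT tumours had 6 of 48 interleukin genes higher than BB tumours and 0 lower, where 1.27 percent of all genes were called, 0.985 percent higher and 0.281 percent lower (n = 7 and 4). These were Il2rg (1.73 ± 0.46, adjusted p = 0.039), Il1a (1.73 ± 0.45, adjusted p = 0.036), Il7r (1.40 ± 0.35), Il4r (1.11 ± 0.27), Il15 (1.01 ± 0.22) and Il12a (0.66 ± 0.18). All 6 overlapped between the groups, since BB rat 55, or for Il12a rat 56, lay among the MRT tumours. The result turned on single BB arrays: 15 genes were called without rat 55, and 0 without rat 54, 56 or 57. With array quality weights 30 were higher and 2 lower, and 0 were called when the fit held only these groups.

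Tumours 6 h after BB had few called interleukin genes. Il9r (0.77 ± 0.18), Il1rap (0.66 ± 0.21) and Il13 (0.37 ± 0.11) rose and Il6st fell by 0.53 ± 0.18, 4 of 48 where 17.4 percent of all genes were called, 10.3 percent higher and 7.09 percent lower (limma, n = 6 and 5). The array medians of the BB group were lower by 0.10 log2, and with equal array medians 7 genes were higher and 0 lower, against 2 and 2 with quantile normalization. The count was 2 without untreated rat 1 or 5 and 0 with only these groups in the fit. MRT tumours at 6 h stood above BB tumours in Il6st (0.66 ± 0.16) and below them in Il18 and Il13 (differences of -0.76 ± 0.25 and -0.29 ± 0.10), 3 of 48 where 15.7 percent of all genes were called, 5.54 percent higher and 10.2 percent lower, and 0 were called with only these groups in the fit. Stat3, which Il6st activates, was higher after MRT by 0.97 ± 0.17.

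**Figure D3:**
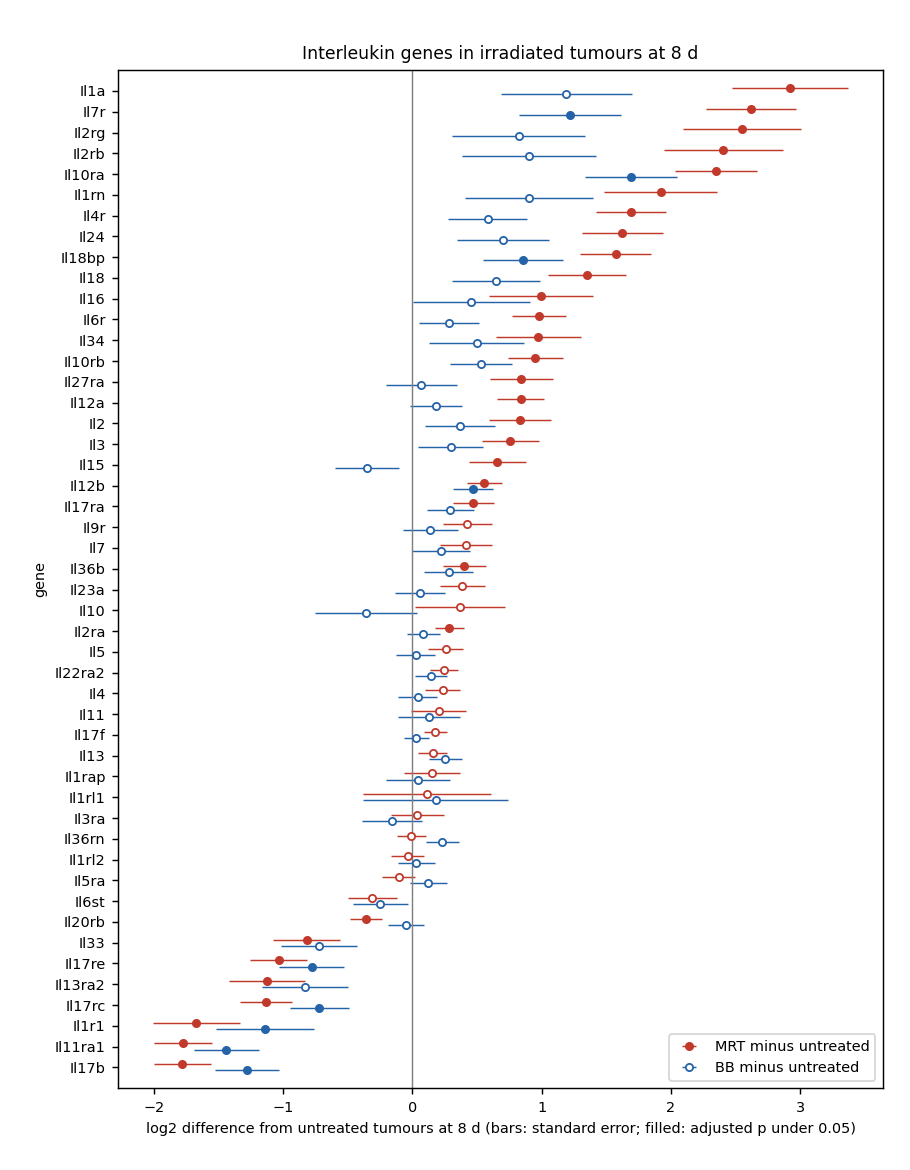
Log2 difference from untreated tumours at 8 d of each of the 48 interleukin genes, after MRT (red) and after BB (blue), with the standard error as a bar and filled points for adjusted p under 0.05. Il1a, Il7r, Il2rg and Il2rb head the rises after MRT with smaller BB differences, and Il17b, Il11ra1 and Il1r1 are lowest after both.

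From 8 d to 15 d after MRT 8 interleukin genes rose and 9 fell, 17 of 48 where 27.9 percent of all genes were called, 16.1 percent higher and 11.8 percent lower (limma, n = 4 and 7). Among the genes that fell, Il1a read 5.75, 5.39, 8.00 and 6.02 at 15 d and fell by 1.59 ± 0.45. Il7r fell by 1.48 ± 0.35, and Il10ra (-1.23 ± 0.32), Il24 (-0.96 ± 0.32), Il15 (-0.84 ± 0.22), Il6r (-0.77 ± 0.21) and Il4r (-0.76 ± 0.27) fell with it. Rat 42 stayed high in Il1a at 8.00, and the Il1a call was lost without rat 41. Il17ra and the dim Il3 also fell. The genes that rose, a share near that of all genes, were Il33 (0.93 ± 0.26), Il1r1 (0.90 ± 0.34), Il17rc (0.77 ± 0.20), Il17b (0.74 ± 0.22) and Il11ra1 (0.61 ± 0.22), together with Il36rn and the dim Il20rb and Il5ra. This comparison and that of MRT with untreated tumours at 8 d share the 8 d MRT tumours. The common gamma chain Il2rg differed by 0.08 ± 0.46 (adjusted p = 0.91). The count was 8 without MRT 15 d rat 40 and 9 without rat 43, and 10 when the fit held only these groups, and 6 genes rose and 11 fell after quantile normalization. Without the 8 d tumours of rats 37 and 38, 2 rose and 13 fell. T and NK markers were at 8.46 to 9.63 and Cdkn2a at 10.05 to 11.16 at 15 d.

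In BB tumours Il33 was the gene that rose from 8 d to 15 d, 1 of 48 where 1.7 percent of all genes were called (n = 4 and 4). It read 8.21, 7.97, 7.90 and 9.39 at 8 d and 10.37, 9.62, 9.80 and 9.39 at 15 d and rose by 1.43 ± 0.29 (limma, adjusted p = 0.004), and its second probe set by 1.95. BB rat 57 at 8 d, whose Cdkn2a was 11.46, lay at the level of the lowest 15 d tumour; without it 6 genes were called, and without BB 15 d rat 59 there were 2. The count was 29 with array quality weights, 5 with neuron markers as a covariate, 2 with the mean of all probe sets and 0 with only these groups in the fit. Il1rl1, the receptor for Il33, differed by 0.92 ± 0.56 (limma, adjusted p = 0.38) and was not called, though its groups did not overlap. Between MRT and BB tumours at 15 d only Il13ra2 was called, 1 of 48 where 3.05 percent of all genes were. It read 5.29, 4.70, 4.81 and 5.17 after MRT and 7.58, 5.32, 6.85 and 4.70 after BB, so only BB rats 58 and 60 were high, and the difference was -1.12 ± 0.33 (adjusted p = 0.047). The call was lost without MRT rat 41, 42 or 43 or BB rat 58 or 60, where the count was 0, and was joined by another without MRT rat 40, where it was 2; with array quality weights 5 were called and with only these groups in the fit 0.

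In the contralateral hemisphere 6 h after MRT, 9 interleukin genes rose and 0 fell, where 8.22 percent of all genes were called, 5.36 percent higher and 2.86 percent lower (n = 9 and 5). Il2rg read 5.17, 5.91, 5.73, 5.39 and 5.13 in untreated samples and 6.49 to 8.20 (median 7.26) after MRT, without overlap, and rose by 1.94 ± 0.25 log2 (limma, adjusted p = 3.1e-08). Il1a read 4.52, 4.91, 4.81, 5.00 and 4.58 untreated and 4.81 to 7.78 (median 6.25) after MRT. MRT rat 7, at 4.81, stayed at the untreated level and rat 10 was highest at 7.78, and the rise was 1.37 ± 0.20 (adjusted p = 8.1e-07). Il1rn read 4.86, 4.75, 4.58, 4.81 and 4.75 untreated and 4.91 to 6.34 (median 5.98) after MRT, and rose by 1.08 ± 0.17. Rat 10, the highest in the ligand, was the lowest MRT sample in the antagonist, at 4.91. Il18bp read 6.79, 7.03, 6.85, 6.74 and 6.71 untreated and 7.28 to 8.26 (median 7.89) after MRT, and rose by 1.05 ± 0.15, with Il18 itself rising by 0.78 ± 0.15. Il4r (0.79 ± 0.13), Il2rb (0.77 ± 0.16), Il10rb (0.53 ± 0.12) and Il12b (0.48 ± 0.15) were the others.

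Neutrophil markers ran from 4.72 to 4.99 untreated and from 5.44 to 8.05 after MRT, with 4 of 4 higher, and microglia markers from 8.00 to 8.25 and from 5.51 to 7.47, with 4 of 4 lower; T and NK markers were at 5.33 to 5.54 and 5.53 to 6.11. Their part was not tested. With neuron markers as a covariate the same number, 9, was called. Downstream, 15 of 30 signalling genes rose and 0 fell. Casp4 (2.40 ± 0.19), Bcl3 (2.78 ± 0.22), Irak2 (1.45 ± 0.12), Nfkbia (2.23 ± 0.19) and Myd88 (1.46 ± 0.15) led.

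After BB the same hemisphere at 6 h had 6 genes higher and 6 lower, 12 of 48 where 21.6 percent of all genes were called, 8.92 percent higher and 12.6 percent lower (n = 6 and 5). Il2rg read 6.00 to 7.15 (median 6.58) and rose by 1.14 ± 0.27 (limma, adjusted p = 0.0019), and Il18bp read 7.48 to 7.84 (median 7.58) and rose by 0.79 ± 0.17. Both lay wholly above untreated samples and kept the call under all alternatives counted, which do not include Cdkn2a as a covariate. Il6st (0.63), Il2rb (0.59), Il18 (0.53) and Il4r (0.44) rose, and Il11ra1 (-0.83), Il12a (-0.52), Il7r (-0.50), Il3ra (-0.48), Il33 (-0.45) and Il34 (-0.31) fell. These 10 lost the call with neuron markers as a covariate, where 2 genes were called. The count was 6 without untreated rat 3.

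Il1a read only 4.81 to 5.09 (median 4.98) and Il1rn 4.86 to 5.36 (median 5.08) after BB, with differences from untreated of 0.20 ± 0.22 and 0.35 ± 0.18 that were not called (adjusted p = 0.57 and 0.18). In the direct test MRT samples stood above BB samples in 7 genes and below them in 0, where 5.39 percent of all genes were called, 3.81 percent higher and 1.58 percent lower (n = 9 and 6). These were Il1a (1.17 ± 0.19, adjusted p = 1.2e-04), Il2rg (0.80 ± 0.24), Il1rn (0.73 ± 0.16), Il7r (0.56 ± 0.15), Il15 (0.46 ± 0.12), Il3ra and Il34. Socs3, the feedback inhibitor of gp130 signalling, was higher after MRT by 1.18 ± 0.16. Il1a and Il1rn kept the call with neuron markers as a covariate, and 1 gene, Il7r, was called with only these groups in the fit, against 13 with array quality weights.

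**Figure D4:**
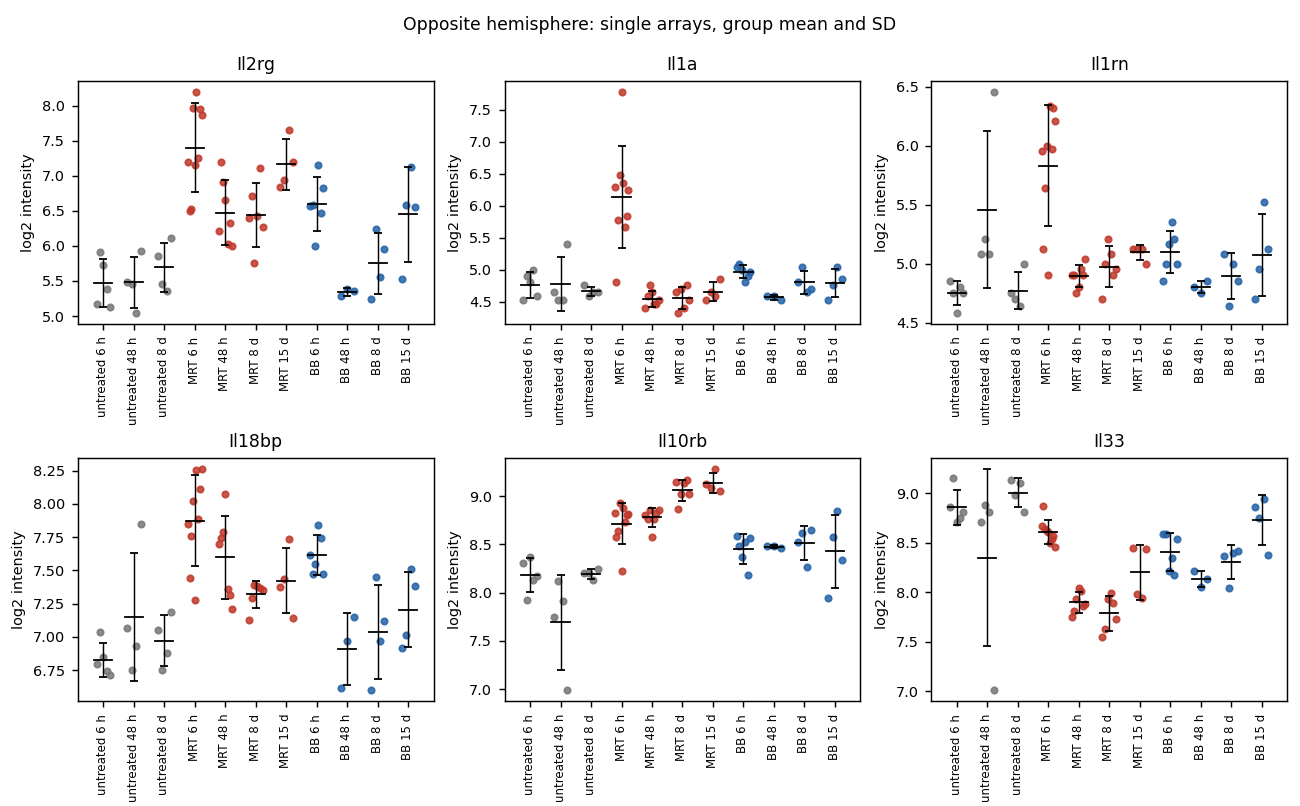
Level (log2 intensity) of 6 interleukin genes in every contralateral array, by treatment and time, with the group mean as a line and 1 SD as a bar. Il1a and Il1rn have their highest group means in MRT samples at 6 h, Il10rb is higher after MRT at 48 h and 8 d, and Il33 is lower after MRT from 48 h; the untreated 48 h sample of rat 18 is high in Il1a and Il1rn and low in Il10rb and Il33.

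At 48 h the contralateral comparison turned on rat 18, the untreated sample that stood apart. With it, 6 genes rose and 14 fell after MRT, 20 of 48 where 32.2 percent of all genes were called, 13.2 percent higher and 19 percent lower (n = 7 and 4). After BB 1 rose and 13 fell, 14 of 48 where 21.6 percent of all genes were called, 6.46 percent higher and 15.1 percent lower (n = 3 and 4). Without it 5 rose and 2 fell after MRT and 1 rose and 1 fell after BB. After MRT the split also followed scaling, with 5 higher and 21 lower under equal array medians and 7 higher and 8 lower under quantile normalization. With array quality weights the counts were 9 after MRT and 8 after BB, and with only the compared groups in the fit 2 and 0. The genes that fell included the ligands Il4, Il5, Il13 and Il11.

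Il10rb was the main rise that did not need this sample. It read 7.75, 8.12, 7.91 and 6.99 untreated (the last value is rat 18), 8.57 to 8.86 (median 8.80) after MRT and 8.48, 8.49 and 8.46 after BB. It rose by 1.09 ± 0.13 after MRT (limma, adjusted p = 2.5e-08) and by 0.79 ± 0.16 after BB (adjusted p = 0.0018). After MRT it kept the call in all alternatives counted, which do not include Cdkn2a as a covariate. Il2rg read 5.49, 5.46, 5.04 and 5.93 untreated, 6.00 to 7.20 (median 6.32) after MRT and 5.29, 5.39 and 5.36 after BB. It rose by 0.99 ± 0.28 after MRT (adjusted p = 0.0075) and was higher after MRT than after BB by 1.13 ± 0.31 (adjusted p = 0.037). Il18bp (0.69 ± 0.19) and Il17ra (0.57 ± 0.15) were the other genes higher after MRT than BB, 3 of 48 where 1.94 percent of all genes were called. That count was 0 without BB rat 50 or 52, 1 without rat 51 and 6 with array quality weights. The BB count against untreated samples was 22 without untreated rat 16 or 17, and 8, 5 and 8 without BB rats 50, 51 and 52. Among signalling genes Pycard (1.87 ± 0.20), Casp4 (1.66 ± 0.21) and Stat3 (1.39 ± 0.20) led the 11 of 30 that rose after MRT.

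By 8 d the contralateral hemisphere after MRT had a small set of changed genes, 5 higher and 1 lower, 6 of 48 where 7.91 percent of all genes were called, 5.71 percent higher and 2.19 percent lower (n = 6 and 4). Il33 read 9.13, 8.98, 9.11 and 8.81 in untreated samples, 7.55 to 7.99 (median 7.81) after MRT and 8.36, 8.04, 8.40 and 8.42 after BB, so that all irradiated samples lay below all untreated ones. It fell by 1.22 ± 0.18 after MRT (limma, adjusted p = 1.7e-06) and by 0.70 ± 0.20 after BB (adjusted p = 0.025). The second probe set of Il33 differed by -1.04 and -0.90. After BB Il33 was the one gene called of 48, where 5.94 percent of all genes were called, 3.24 percent higher and 2.7 percent lower (n = 4 and 4), and the count was 0 without untreated rat 39, 28 or 29 or BB rat 54, and without BB rat 55 the call of Il33 was lost as well; with array quality weights the count was 6. MRT and BB samples did not overlap either, with a difference of -0.52 ± 0.18 (adjusted p = 0.12). Oligodendrocyte markers ran from 11.79 to 12.49 untreated, from 11.80 to 12.04 after MRT and from 11.95 to 12.14 after BB, and astrocyte markers from 10.81 to 11.14, from 11.20 to 11.42 and from 10.74 to 10.95; their part in the fall was not tested.

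Il10rb read 8.20, 8.20, 8.13 and 8.25 untreated, 8.86 to 9.17 (median 9.08) after MRT and 8.53, 8.62, 8.26 and 8.65 after BB at 8 d. It rose by 0.86 ± 0.14 after MRT (limma, adjusted p = 7.9e-06), and MRT samples stood above BB samples by 0.54 ± 0.14 (adjusted p = 0.014), the 1 gene of 48 called between them, where 3.02 percent of all genes were. That count was 0 without BB rat 54 or 56, 6 with array quality weights and 3 with only these groups in the fit. The binding chain Il10ra rose by 0.66 ± 0.18, though its second, dimmer probe set differed by -0.05 and the call was lost with the mean of the probe sets, with neuron markers as a covariate and without untreated rat 30. Il18 (0.76 ± 0.18), Il1rap (0.62 ± 0.16) and Il13ra2 (0.55 ± 0.16) also rose; Il1rap lost the call with the mean of the probe sets, and Il13ra2 without untreated rat 39 or 29. Both with equal array medians and with quantile normalization 5 genes were higher and 2 lower. Macrophage and monocyte markers ran from 6.38 to 7.00 untreated and from 7.86 to 8.10 after MRT. Of the signalling list 6 of 30 genes rose, led by Pycard (1.54 ± 0.21) and Casp4 (1.44 ± 0.21).

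At 15 d 3 genes were higher in the contralateral hemisphere after MRT than after BB and 0 lower, where 5.87 percent of all genes were called, 4.11 percent higher and 1.75 percent lower (n = 4 and 4). Il10rb read 9.12, 9.09, 9.28 and 9.06 after MRT against 7.95, 8.58, 8.85 and 8.34 after BB, a difference of 0.71 ± 0.15 (limma, adjusted p = 0.0017). Il34 read 9.48, 9.22, 9.40 and 9.40 and 8.85, 8.75, 8.76 and 9.21 and differed by 0.48 ± 0.12 (adjusted p = 0.0091), and Il18 by 0.69 ± 0.19. Il10rb and Il34 did not overlap. The 9L marker Cdkn2a was raised in BB rats 59, 60 and 61 (7.07, 8.07 and 6.70) and in MRT rat 43 (5.83); with Cdkn2a as a covariate 5 genes were higher and 1 lower. The count was 5 without MRT rat 43, 1 without BB rat 59, 11 with array quality weights and 5 with only these groups in the fit.

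The response to MRT was then compared between tumour and contralateral hemisphere, by testing the difference of the differences. At 6 h 0 of 48 genes were called (limma, 5 at an unadjusted p under 0.05, 4 called with array quality weights, 1 with the rat as a block and 1 without untreated tumour rat 4), where 0.886 percent of all genes were called. The difference of Il1a at that time was 1.02 in tumour, where it was not called, and 1.37 contralaterally, with an interaction term of -0.35 ± 0.46 (adjusted p = 1). The Il1rn values of -0.02 and 1.08 and the Il2rg values of 0.32 and 1.94 lay further apart, with interaction terms of -1.10 ± 0.43 (adjusted p = 0.55) and -1.61 ± 0.49 (adjusted p = 0.11). The tumour value of Il1rn includes the outlying untreated tumour of rat 5, at 8.54, where the median of all untreated tumours was 4.75. It lowers that difference and its interaction term. At 48 h Il10 (1.51 ± 0.37, adjusted p = 0.016) and Il3ra (0.84 ± 0.25, adjusted p = 0.046) responded more in tumour, 2 of 48 where 2.48 percent of all genes were called, and the count turned on single untreated arrays. With the rat as a block, which pairs the tissues of a rat, it was 5. It was 0 without the contralateral sample of rat 18, 7 without that of rat 15, 5 without that of rat 16 or 17, and 1 without the tumour of rat 15, 16, 17 or 18.

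At 8 d the response was more positive in tumour for 17 genes and more negative for 6, 23 of 48 where 37 percent of all genes were called. Of all genes, 15.4 percent were more positive and 21.6 percent more negative. Il1a (3.02 ± 0.52), Il7r (2.76 ± 0.41), Il2rb (2.13 ± 0.51), Il2rg (1.80 ± 0.55), Il1rn (1.72 ± 0.49) and Il10ra (1.68 ± 0.37) led the first group, and Il1r1 (-1.87 ± 0.40), Il17b (-1.71 ± 0.28), Il13ra2 (-1.67 ± 0.34) and Il11ra1 (-1.67 ± 0.31) the other. Il33 fell in both tissues and Il10rb and Il18 rose in both, and their interaction terms were not called (0.40 ± 0.32, 0.08 ± 0.26 and 0.59 ± 0.36). The array medians moved by -0.11 log2 in this contrast, and with equal array medians 20 genes were more positive and 6 more negative.

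**Figure D5:**
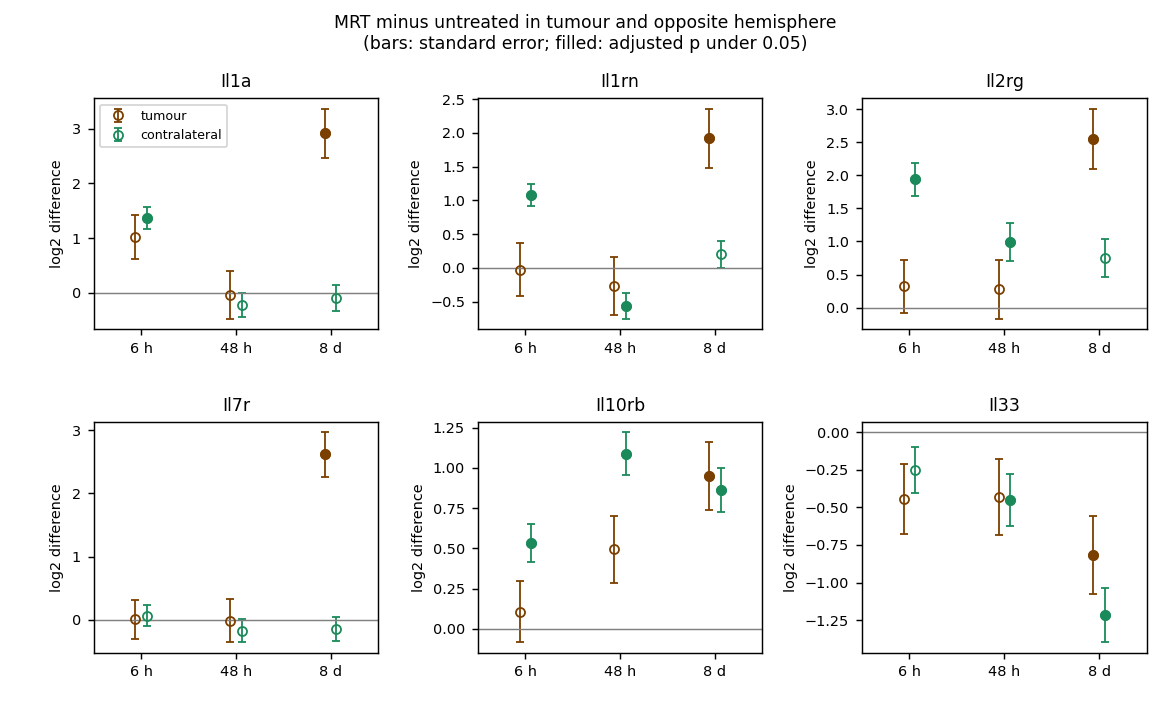
Log2 difference between MRT and untreated samples at 6 h, 48 h and 8 d for 6 interleukin genes, in tumour (brown) and contralateral hemisphere (green), with the standard error as a bar and filled points for adjusted p under 0.05. Il1a, Il1rn and Il2rg are raised contralaterally at 6 h, Il2rg also at 48 h, and all 3 in tumour at 8 d, Il7r only in tumour at 8 d among these points, and Il10rb rises and Il33 falls in both tissues by 8 d.

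Il23a and Il7 were the 2 of the 48 genes called in none of the 27 comparisons. Il7, the ligand of Il7r, differed by 0.41 ± 0.20 in MRT tumours at 8 d (limma, adjusted p = 0.084), where its second probe set differed by 0.38. Il9r, Il16, Il17f, Il22ra2 and Il36b were each called in 1 comparison. Among genes with several probe sets, those of Il1a, Il7r and Il33 moved the same way in the comparisons in which the gene was called above. Over all arrays the other probe set of Il17re, Il1rl1 and Il7 correlated with the one used at r = 0.86, 0.79 and 0.79. That of Il10ra did so at 0.14, those of Il1r1 at 0.18 and 0.47 and those of Il6st at 0.57, 0.60 and 0.34. Values of Il10ra, Il1r1 and Il6st therefore hold for the probe set used. The other probe sets of Il1r1 were dim and differed by 0.08 and 0.13 between untreated tumour and contralateral samples, against 2.53 for the one used. The second probe set of Il1rap was lower in tumour, at -0.41, where the one used was higher by 1.08, so values of Il1rap hold for the probe set used.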

How the data were processed

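RNA of 59 tumour and 56 contralateral samples of 60 rats, 55 of which gave both tissues, was labelled (200 ng) and hybridised to Affymetrix arrays. The series table that the authors deposited holds a linear intensity for each probe set, with no background or scaling applied here. Affymetrix Expression Console with RMA and MAS5 is named per the submitters' processing notes, without saying which made which value. The design here had assumed log2 values, so log2 of the deposited intensity was taken. Intensities are whole numbers from 7 to 27837, and array medians ran from 117 to 165. Of 31099 probe sets 20826 carry 1 gene symbol, 436 several and 9780 none; the first gave 14217 genes, each by its brightest probe set on average.

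limma 3.58.1 (R 4.3.3) was fitted to all genes with an intensity trend, on all arrays of a tissue (11 groups) or, between tissues, on all 115 arrays. A gene was called at a Benjamini-Hochberg adjusted p under 0.05 over all genes. Data were arranged and drawn with Python 3.11.15, pandas 2.3.3 and matplotlib 3.10.9. The labels number the samples by rat. Named are called members, up to 12 higher and 12 lower per comparison by size, with the remaining ones named at 8 d after MRT to account for each role. A member not called could be named where its partner was called or its groups did not overlap. Up to 5 called signalling genes per direction were named by moderated statistic. The members and lists were chosen with earlier results of these data known. The signalling list has 30 measured genes of 32, and marker levels are means of log2 values over a list. Values of tumour and contralateral samples of 1 rat deviated together in 38 of 55 rats (r over 0.1, median 0.186). Samples of different rats were not compared in this way, so the source of the shared deviation was not tested. The between-tissue fits treated arrays as independent, and the rat as a block was an alternative. The others were 2 other scalings, a filter on dim genes, the mean of all probe sets, fits on the compared groups alone, no trend, array quality weights, neuron markers as a covariate and leaving out each array of groups up to 5. Tested on simulated data for MRT tumours at 8 d, the fit recovered 18, 66, 98 and 100 percent of genes changed by 0.5, 1, 2 and 3 log2. The simulation changed 50 genes of each size among 14217, with independent noise. In the data 47.8 percent of all genes were called in this comparison, so recovery there can differ. The number of arrays limits the precision.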

Additional observations from a re-analysis of the deposited data

Results flagged for a closer look

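Over 85 pairs of a gene and a group of 4 to 10 arrays tested, 1 array lay apart from the others of its group in 5, and 2 of the 5 are the same array. Chance flags about 1 in 20 such tests. Il4r was low in the untreated tumour of rat 27 at 8 d, at 7.22. Il1a and Il1rn were high in the untreated tumour of rat 5 at 6 h, at 6.00 and 8.54. Il10rb was low in the MRT contralateral sample of rat 22 at 48 h, at 8.57, and Il33 in the BB contralateral sample of rat 55 at 8 d, at 8.04.

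For 25 genes and times the difference between MRT and untreated samples itself differed between tumour and contralateral hemisphere (limma interaction term, adjusted p under 0.05, log2). At 48 h these were Il10 (1.51) and Il3ra (0.84). At 8 d the tumour response was the more positive for Il1a (3.02), Il7r (2.76), Il2rb (2.13), Il2rg (1.80), Il1rn (1.72), Il10ra (1.68), Il4r (1.66), Il24 (1.60) and Il6r (1.33), and also for Il18bp (1.22), Il12a (1.22), Il27ra (0.93), Il2 (0.83), Il3 (0.79), Il15 (0.65), Il12b (0.63) and Il2ra (0.54). It was the more negative for Il17re (-1.02), Il17rc (-1.07), Il11ra1 (-1.67), Il13ra2 (-1.67), Il17b (-1.71) and Il1r1 (-1.87).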

How the results depend on the processing

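The values below are numbers of the 48 interleukin genes called by limma, with the reported count in brackets, wherever an alternative moved the count by over 1.5 times. With array quality weights the count was 11 (from 0) for MRT against untreated tumour at 6 h, 6 (from 2) for MRT against untreated tumour at 48 h, 13 (from 3) for BB against untreated tumour at 48 h and 27 (from 9) for BB against untreated tumour at 8 d. It became 32 (from 6) for MRT against BB tumour at 8 d, 5 (from 1) for MRT against BB tumour at 15 d, 14 (from 9) for MRT against untreated contralateral at 6 h and 9 (from 20) for MRT against untreated contralateral at 48 h. The count became 8 (from 14) for BB against untreated contralateral at 48 h, 6 (from 1) for BB against untreated contralateral at 8 d, 13 (from 7) for MRT against BB contralateral at 6 h and 6 (from 3) for MRT against BB contralateral at 48 h. It became 6 (from 1) for MRT against BB contralateral at 8 d, 11 (from 3) for MRT against BB contralateral at 15 d, 29 (from 11) for untreated tumour from 6 h to 8 d and 29 (from 1) for BB tumour from 8 d to 15 d. The count became 4 (from 0) for the tissue difference at 6 h and 1 (from 2) for the tissue difference at 48 h. With only the groups compared in the fit the count was 5 (from 2) for MRT against untreated tumour at 48 h, 0 (from 4) for BB against untreated tumour at 6 h, 3 (from 9) for BB against untreated tumour at 8 d and 0 (from 3) for MRT against BB tumour at 6 h. It became 0 (from 6) for MRT against BB tumour at 8 d, 0 (from 1) for MRT against BB tumour at 15 d, 2 (from 20) for MRT against untreated contralateral at 48 h and 0 (from 14) for BB against untreated contralateral at 48 h. The count became 2 (from 1) for BB against untreated contralateral at 8 d, 1 (from 7) for MRT against BB contralateral at 6 h, 3 (from 1) for MRT against BB contralateral at 8 d and 5 (from 3) for MRT against BB contralateral at 15 d. It became 21 (from 11) for untreated tumour from 6 h to 8 d, 10 (from 17) for MRT tumour from 8 d to 15 d, 0 (from 1) for BB tumour from 8 d to 15 d and 1 (from 2) for the tissue difference at 48 h. Without the dimmest 30 percent of genes, which left 16 of the 48 to be counted among 9952, the count was 12 (from 32) for untreated tumour against contralateral, 1 (from 2) for MRT against untreated tumour at 48 h, 14 (from 31) for MRT against untreated tumour at 8 d and 1 (from 4) for BB against untreated tumour at 6 h. It became 1 (from 3) for BB against untreated tumour at 48 h, 4 (from 9) for BB against untreated tumour at 8 d, 2 (from 6) for MRT against BB tumour at 8 d and 0 (from 1) for MRT against BB tumour at 15 d. The count became 5 (from 9) for MRT against untreated contralateral at 6 h, 7 (from 20) for MRT against untreated contralateral at 48 h, 2 (from 14) for BB against untreated contralateral at 48 h and 4 (from 7) for MRT against BB contralateral at 6 h. It became 6 (from 11) for untreated tumour from 6 h to 8 d, 8 (from 17) for MRT tumour from 8 d to 15 d, 1 (from 2) for the tissue difference at 48 h and 8 (from 23) for the tissue difference at 8 d. With the neuron markers added to the fit the count was 1 (from 3) for MRT against BB tumour at 6 h, 2 (from 12) for BB against untreated contralateral at 6 h, 0 (from 1) for BB against untreated contralateral at 8 d and 2 (from 7) for MRT against BB contralateral at 6 h. It became 0 (from 11) for untreated tumour from 6 h to 8 d and 5 (from 1) for BB tumour from 8 d to 15 d. After quantile normalization the count was 0 (from 2) for MRT against untreated tumour at 48 h, 7 (from 14) for BB against untreated contralateral at 48 h, 0 (from 1) for BB against untreated contralateral at 8 d and 0 (from 1) for MRT against BB contralateral at 8 d. With the mean of all probe sets the count was 1 (from 2) for MRT against untreated tumour at 48 h, 2 (from 4) for BB against untreated tumour at 6 h and 2 (from 1) for BB tumour from 8 d to 15 d. After a shift of arrays to a common median the count was 7 (from 4) for BB against untreated tumour at 6 h. With Cdkn2a as a covariate, chosen after seeing the data, the count was 3 (from 1) for BB against untreated contralateral at 8 d, 3 (from 1) for MRT against BB contralateral at 8 d and 6 (from 3) for MRT against BB contralateral at 15 d.

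With the rat as a replicate block, which pairs the tissues of a rat (consensus correlation 0.157), the count was 1 (from 0) for the tissue difference at 6 h and 5 (from 2) for the tissue difference at 48 h, and it moved no other count of a between-tissue comparison by that much.

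Leaving out 1 array at a time moved the count over 28 to 35 for untreated tumour against contralateral, 0 to 0 for MRT against untreated tumour at 6 h, 0 to 2 for MRT against untreated tumour at 48 h, 26 to 31 for MRT against untreated tumour at 8 d and 2 to 4 for BB against untreated tumour at 6 h. The range was 1 to 3 for BB against untreated tumour at 48 h, 3 to 12 for BB against untreated tumour at 8 d, 0 to 0 for MRT against BB tumour at 48 h, 0 to 15 for MRT against BB tumour at 8 d and 0 to 2 for MRT against BB tumour at 15 d. The range was 8 to 10 for MRT against untreated contralateral at 6 h, 7 to 25 for MRT against untreated contralateral at 48 h, 5 to 6 for MRT against untreated contralateral at 8 d, 6 to 11 for BB against untreated contralateral at 6 h and 2 to 22 for BB against untreated contralateral at 48 h. The range was 0 to 1 for BB against untreated contralateral at 8 d, 0 to 1 for MRT against BB contralateral at 48 h, 0 to 1 for MRT against BB contralateral at 8 d, 1 to 5 for MRT against BB contralateral at 15 d and 10 to 14 for untreated tumour from 6 h to 8 d. The range was 8 to 17 for MRT tumour from 8 d to 15 d, 1 to 6 for BB tumour from 8 d to 15 d, 0 to 1 for the tissue difference at 6 h, 0 to 7 for the tissue difference at 48 h and 22 to 24 for the tissue difference at 8 d.

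Of the 221 gene calls over all comparisons, 83 held under all alternatives counted and 138 were lost under at least 1. The alternatives counted do not include Cdkn2a as a covariate or the fit without the MRT tumours lowest in Cdkn2a. The intensity filter could test only the 16 interleukin genes it left, and single arrays of the larger groups were not left out. The 83 calls are therefore those held where a gene and an array were tested. The call reversed in sign was Il2ra between untreated tumour and contralateral samples, from -0.15 to 0.0131 after quantile normalization. Fitting without an intensity trend moved no count by over 1.5 times. The causes of these shifts were not tested, except that the intensity filter and the leave-outs count over fewer genes and arrays. Dim signal limits 15 of the genes, for which a step of 1 intensity unit at the lower quartile is 0.04 log2, and groups of 3 to 9 arrays limit the rest.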
